A study of Rattus norvegicus with 36 samples.

Results

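The 36 livers of a rat dosing study were sorted by the expression of interferon-stimulated genes, and the high livers were compared with the low ones. The sets were chosen by measured values: for each animal the log2 values of Mx1, Rtp4, Cxcl10 and Ubd were averaged, the animals were put in order of that mean, and the order was divided at the widest gap that left at least 8 animals on each side. The high set held 20 of the 36 animals and the low set 16. The animals were male Harlan Sprague Dawley rats, 7 weeks old at the start, given corn oil with or without TBBPA-DBPE, the bis(2,3-dibromopropyl ether) of the brominated flame retardant tetrabromobisphenol A, by daily gavage for 5 days. Vehicle animals received corn oil alone, and the 5 dose groups received 0.1, 0.94 or 9.4 mg/kg or, at the upper end, 94.3 or 943 mg/kg, with 6 animals in each of the 6 groups. RNA from the left lobe of the liver, taken 1 day after the last dose, was hybridised to 1 Affymetrix rat expression array per animal. Values are log2 units as deposited, so a difference of 1 is a 2-fold difference.

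Interferons are secreted proteins that bind receptors on nearly every cell and act through JAK kinases and STAT transcription factors. Type I and type III interferons assemble a complex that holds STAT2 and IRF9 and binds the interferon-stimulated response element, while interferon gamma acts on the gamma-activated site. The genes switched on block viral replication, present antigen and attract lymphocytes, and in the liver both hepatocytes and the resident macrophages, the Kupffer cells, carry out this response.

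Mx1, a dynamin-like GTPase that blocks viral replication, lay between 3.01 and 5.01 in the low set (median 3.50) and between 4.39 and 5.55 in the high set (median 5.05). Rtp4, a chaperone of membrane receptors that is strongly induced by interferon, lay between 6.27 and 8.67 (median 6.62) in the low set and between 7.99 and 9.42 (median 8.81) in the high set. Cxcl10, a chemokine that draws activated T cells, ran from 4.64 to 6.36 (median 4.98) in the low set and from 5.22 to 7.15 (median 5.64) in the high set. Ubd, the ubiquitin-like modifier FAT10, ran from 4.14 to 8.71 (median 7.63) and from 4.75 to 9.04 (median 8.18). The sets overlapped in each of the 4 genes. These values chose the sets and are given as a description, with no test. The last animal inside the low set had a 4-gene mean of 6.11 (0.1 mg/kg, replicate 2) and the first inside the high set 6.36 (94.3 mg/kg, replicate 3), a gap of 0.25.

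**Figure D1:**
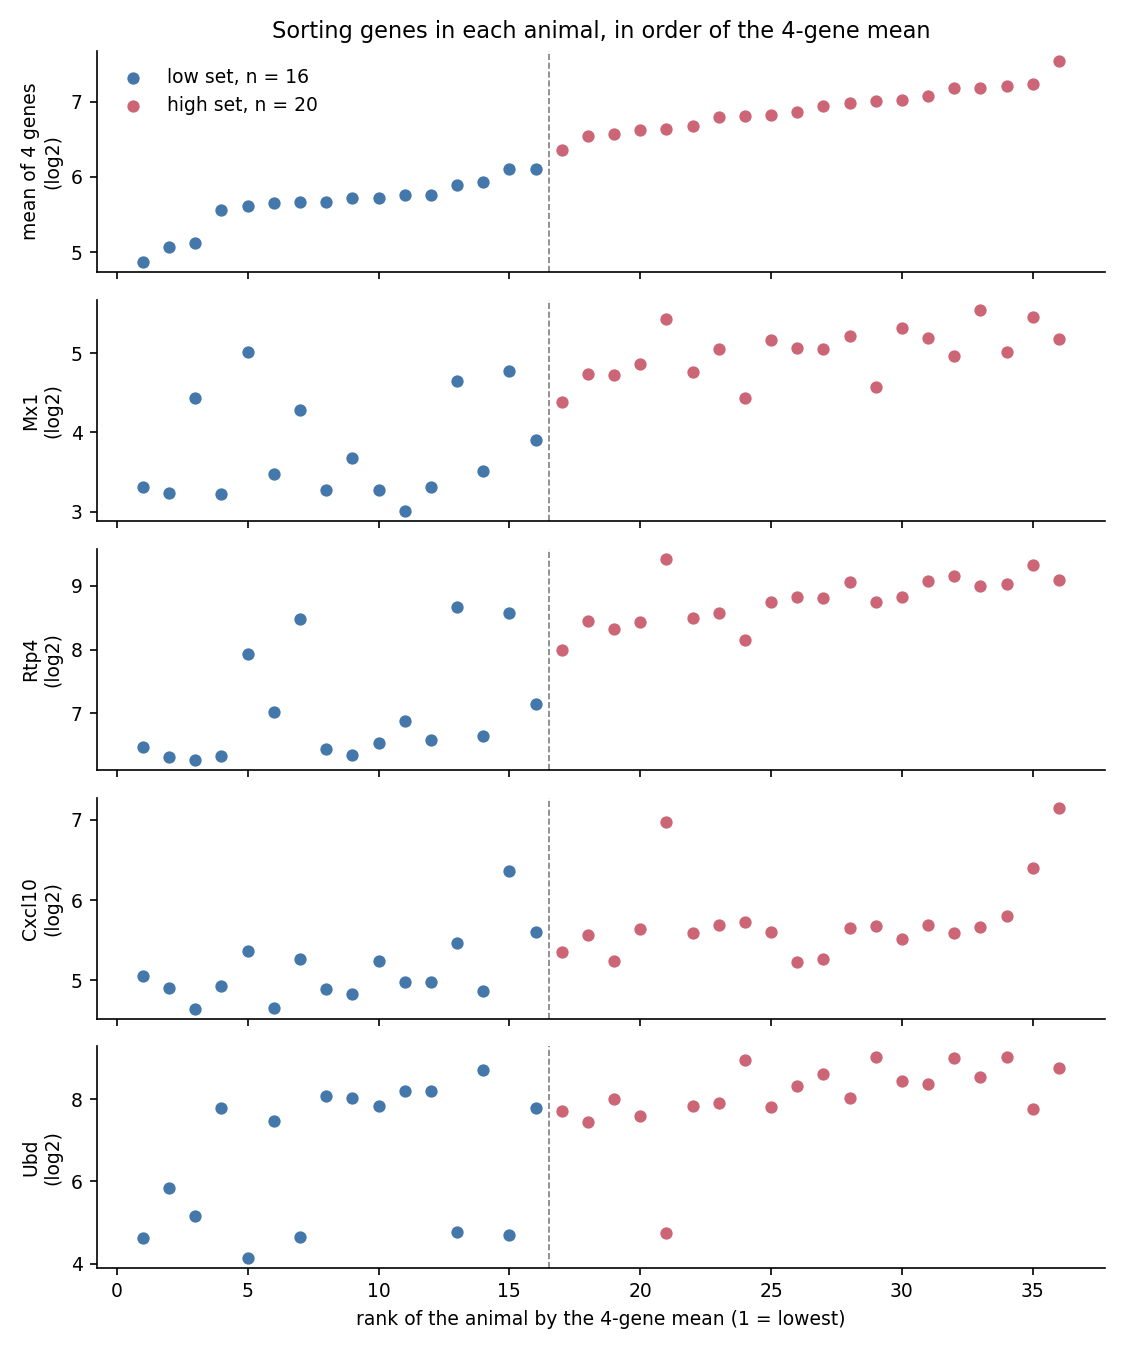
The 4-gene mean and the log2 value of each sorting gene (vertical axes) in the 36 animals, ordered by the 4-gene mean (horizontal axis), 1 point per animal, with the low set (16) in blue and the high set (20) in red; the dashed line marks the division. Mx1 and Rtp4 are high in several animals just left of the line, which are the animals with low Ubd.

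The label holds only in part, because Ubd did not follow the other 3 genes. Ubd alone fell into 8 animals between 4.14 and 5.84 and 28 between 7.45 and 9.04, with none in the gap of 1.62. Of the 8 animals with low Ubd, 5 were high in the mean of Mx1, Rtp4 and Cxcl10. One of these 5, the 9.4 mg/kg replicate 6, had the highest 3-gene mean of all animals (7.28) with Ubd at 4.75, and it stayed in the high set. The other 4 (vehicle replicate 6, 9.4 mg/kg replicates 2 and 3, and 943 mg/kg replicate 5) were placed in the low set by their Ubd value. Divided by the 3 genes without Ubd, the animals fell into 11 low livers (4.82 to 5.11) and 25 high livers (5.55 to 7.28), with a gap of 0.43. The fifth animal to move was the 0.1 mg/kg replicate 2, which stood alone at 5.55. The low set of 16 thus held 11 livers that were low by both divisions and 5 that were high without Ubd. The sets are therefore called the high and low 4-gene sets, and calls of named genes and list counts that change without Ubd are given for both divisions.

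**Figure D2:**
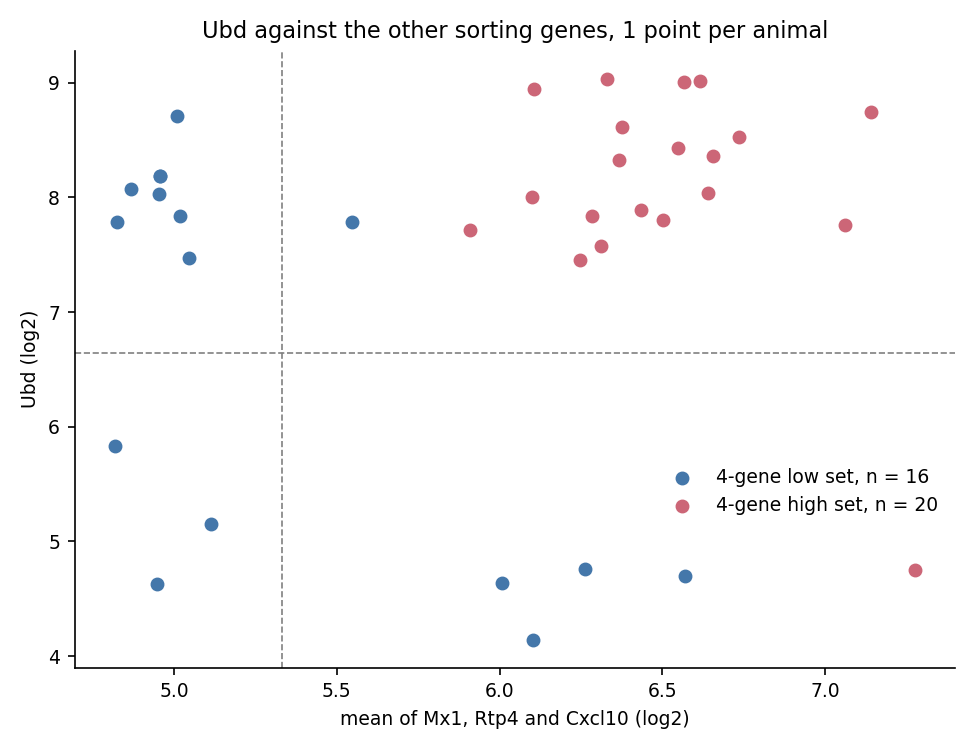
Log2 value of Ubd (vertical axis) against the mean log2 value of Mx1, Rtp4 and Cxcl10 (horizontal axis), 1 point per animal, coloured by 4-gene set; dashed lines lie in the middle of the widest gap of each axis. The counts are 20 animals high on both axes, 8 high in Ubd only, 5 high in the 3 genes only and 3 low on both.

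The promoters of 3 genes are printed as examples, Cxcl10 and Oas1a because they hold a motif of the interferon response and Clec4f because it also rose and does not. They are RefSeq windows of the GRCr8 build, from 250 bases before the gene start to 50 after it, in the sense of transcription: Cxcl10 at chr14:15988816-15989115 (plus strand), Oas1a, a synthase of the 2-5A messenger that activates RNase L, at chr12:41330216-41330515 (plus strand), and Clec4f, a lectin of Kupffer cells, at chr4:117696358-117696657 (minus strand). Capitals mark GAAANNGAAA, a core of the interferon-stimulated response element, searched on both strands.
Cxcl10: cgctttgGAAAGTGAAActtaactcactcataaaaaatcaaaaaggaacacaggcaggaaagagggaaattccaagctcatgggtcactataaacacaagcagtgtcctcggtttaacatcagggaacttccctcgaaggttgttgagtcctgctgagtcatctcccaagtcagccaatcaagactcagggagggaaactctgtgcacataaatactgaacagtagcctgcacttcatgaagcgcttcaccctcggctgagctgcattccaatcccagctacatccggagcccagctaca
Oas1a: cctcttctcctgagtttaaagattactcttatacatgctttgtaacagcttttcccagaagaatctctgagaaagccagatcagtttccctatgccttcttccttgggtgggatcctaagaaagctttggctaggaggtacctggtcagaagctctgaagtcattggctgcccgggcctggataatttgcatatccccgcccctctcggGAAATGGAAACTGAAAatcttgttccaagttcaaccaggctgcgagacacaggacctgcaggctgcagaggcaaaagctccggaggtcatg
Clec4f: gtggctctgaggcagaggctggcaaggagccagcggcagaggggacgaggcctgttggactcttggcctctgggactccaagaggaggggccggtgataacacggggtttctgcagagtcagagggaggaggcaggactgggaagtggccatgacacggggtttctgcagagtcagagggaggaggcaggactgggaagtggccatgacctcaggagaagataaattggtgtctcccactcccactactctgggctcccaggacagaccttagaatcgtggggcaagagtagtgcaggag
Cxcl10 held 1 match, starting 243 bases before the gene start. Oas1a held 2 overlapping matches, starting 41 and 35 bases before it, and Clec4f held none. The promoters of the sorting genes Mx1 and Ubd and of Ms4a6a, Slfn4 and Cd5l were searched too and held none, so of the 3 sorting genes matched 1 held it. Of the 27457 RefSeq promoters, 3.77% held this motif, and of the 11700 with a gene on the array 2.99% did. Of the genes that passed as higher in the high 4-gene set, 168 had a promoter in the table and 28.6% of these (48) held the motif. The share was 56.1% (32 of 57) among those on the interferon lists described below, 12.5% (1 of 8) among those on the Kupffer cell list and 14.6% (15 of 103) among those on neither. The STAT motif TTCNNNGAA, searched the same way, lay in 6.99% of promoters of genes on the array and in 14.9% of those of the genes that passed as higher. A match is a description of the letters in this window.

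The sets were spread over the dose groups. The high 4-gene set held 3 of 6 vehicle animals, 3 at 0.1 mg/kg, 3 at 0.94 mg/kg, 4 at 9.4 mg/kg, 5 at 94.3 mg/kg and 2 at 943 mg/kg (Fisher's exact test on 6 groups and 2 sets, two-sided, p = 0.721). Without Ubd the counts of high livers were 4, 4, 3, 6, 5 and 3 in the same order (exact p = 0.459). The 8 livers with low Ubd were 2 vehicle animals, 1 at 0.1 mg/kg, 3 at 9.4 mg/kg and 2 at 943 mg/kg (exact p = 0.302). No uneven spread over the doses was detectable with 6 animals in a group.

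**Figure D3:**
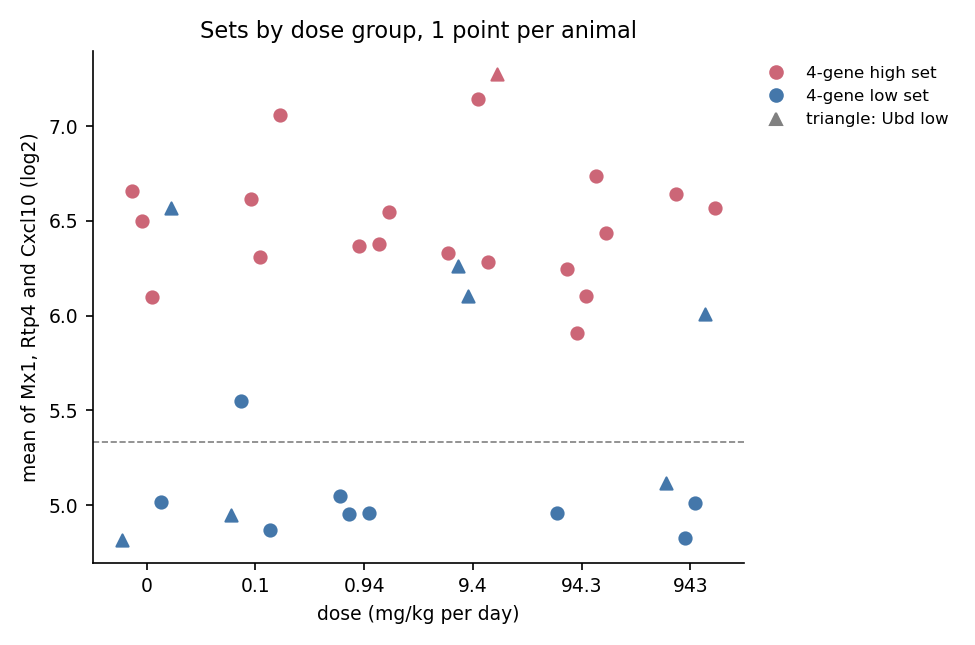
Mean log2 value of Mx1, Rtp4 and Cxcl10 (vertical axis) by daily dose (horizontal axis), 1 point per animal, coloured by 4-gene set, with triangles for animals with low Ubd; the dashed line divides the sets without Ubd. Livers above and below the line occur in 5 of the 6 groups, vehicle included, and all 6 animals at 9.4 mg/kg lie above it.

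Over all other probe sets, with dose group as a covariate, 331 of 31038 (1.07%) passed an adjusted p of 0.05 in limma with Benjamini-Hochberg adjustment. Of these, 317 (1.02%) were higher and 14 (0.0451%) lower in the high set. With 1 probe set per gene, 231 of 14213 genes (1.63%) passed, 223 (1.57%) higher and 8 (0.0563%) lower. At least 2-fold differences were seen in 19 probe sets that were higher and 2 that were lower. The sets came from the same arrays, so a call says that a gene went with the 4 sorting genes, and nothing about a treatment. Without Ubd 359 probe sets (1.16%) passed, 339 (1.09%) higher and 20 (0.0644%) lower, of which 282 were among the 331. With 1 probe set per gene these were 247 genes (1.74%), 236 (1.66%) higher and 11 (0.0774%) lower. The sets by Ubd alone gave 0 calls (2022 at an unadjusted p under 0.05). With both divisions in one limma fit, the sets without Ubd gave 324 calls and Ubd gave 0 (1833 unadjusted). Transcripts that passed thus went with Mx1, Rtp4 and Cxcl10, and none was detected that went with Ubd.

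Of the 223 genes that passed as higher, 68 were on the interferon lists, and most of the others, 144 counted by Entrez identifier, were on neither these nor the Kupffer cell list. Of 116 measured genes on the interferon lists, 68 passed as higher and 0 as lower, both with the 4-gene sets and without Ubd, with a median difference of 0.26 between the 4-gene sets, against -0.0061 over all 14213 genes. These lists share a response with the sorting genes, so the counts are a description. None of the 9 measured interferon ligands and receptors passed. Ifnb1 (3.41 in the low and 3.46 in the high set, means) and Ifng (2.53 and 2.48) were below every array's median, and the receptor chains Ifnar2 (difference 0.08, SE 0.05) and Ifngr2 (0.02, SE 0.04) had adjusted p values of 0.796 and 0.953 in limma.

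Usp18, which removes ISG15 from proteins and restrains the type I receptor, showed the largest difference of the genes tested, sorting genes left out. It lay between 4.69 and 6.76 (median 5.28) in the low set and between 6.43 and 7.71 (median 7.02) in the high set. It was above every low animal in 15 of 20 high animals, and its difference was 1.56 (SE 0.17, a 2.95-fold difference, limma adjusted p = 4.80e-07). Of 15 measured genes of JAK-STAT and IRF signalling, 5 passed, all higher. Irf9, the DNA-binding partner of STAT2, ran from 5.50 to 6.83 in the low and from 6.64 to 7.58 in the high set. Irf7, the amplifier of type I interferon production, ran from 5.85 to 7.38 and from 7.18 to 8.13. Both differed by 1.11 (SE 0.13), and the sets overlapped in both. Irf1 (0.49) and Irf8 (0.29) passed with smaller differences, though Irf1 did not pass without Ubd (adjusted p = 0.0933), which left 4 of the 15. The kinases Jak1 (-0.05), Jak2 (0.04) and Tyk2 (-0.06) did not pass, nor did Stat2 (0.15, adjusted p = 0.0715) or the inhibitor Socs1 (0.03).

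Of 45 measured antiviral effectors 34 passed, all higher, with a median difference of 0.41 over the list, and without Ubd 37 passed. Isg15, the ubiquitin-like modifier, was at 5.92 ± 0.50 (SD, n = 16) in the low and 7.05 ± 0.35 (SD, n = 20) in the high set, a difference of 1.14 (SE 0.14). Without Ubd its sets did not overlap, at 5.31 to 5.79 in 11 animals and 6.38 to 7.71 in 25. The other large differences were those of Mx2 (1.37), Oas1a (1.19), Slfn4 (1.17), Ifit3 (1.10) and Ifi44l (0.97). Mx2 is a dynamin-like GTPase, Slfn4 a Schlafen protein known from myeloid cells of the mouse, and Ifit3 a partner of the RNA-binding IFIT proteins. Ifi27, among the most abundant, ran from 11.25 to 12.38 in the low and from 12.19 to 12.48 in the high set. Rsad2, or viperin, differed by 0.57. The list was not uniform, as Ifit1 (0.00, SE 0.06, adjusted p = 0.999) and Trim14 (-0.12, adjusted p = 0.745) did not pass.

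Some members of the smaller groups of the response rose beside these. Of 13 genes of nucleic acid sensing, 5 passed as higher: Ddx60 (1.02), Eif2ak2 (0.54), the endosomal RNA receptor Tlr7 (0.37), Dhx58 (0.26) and Ifih1 (0.22). The means of Ddx60 (2.98 in the low and 4.02 in the high set) and Tlr7 (3.20 and 3.57) were below every array's median. Mavs, an adaptor on the same list, was at -0.12 (limma adjusted p = 0.0784). Without Ubd 6 passed, Adar (0.27, adjusted p = 0.000773), an RNA-editing enzyme, being the one gained. Of 6 interferon-inducible GTPases that attack vacuoles of pathogens, 5 passed, led by Gbp2 (1.01) and Igtp (0.99). In ISG15 conjugation, Herc6 (0.69), Ube2l6 (0.49) and Uba7 (0.24) passed, and Uba6 (-0.02) and Ube2z (-0.0048), which activate and transfer FAT10 as well as ubiquitin, did not. Uba7 passed in 24 of the 36 fits that left out 1 animal, and not without Ubd (adjusted p = 0.0995). Of 8 chemokines and receptors 2 passed, Ccl5 (0.72) and Cxcl9 (0.57). Cxcl9 did not pass without 94.3 mg/kg replicate 1. Cxcl11, another ligand of the same receptor, was at 0.08 (adjusted p = 0.820). Without Ubd 3 passed, Cxcl16 (0.23, adjusted p = 0.0295) being the one gained.

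**Figure D4:**
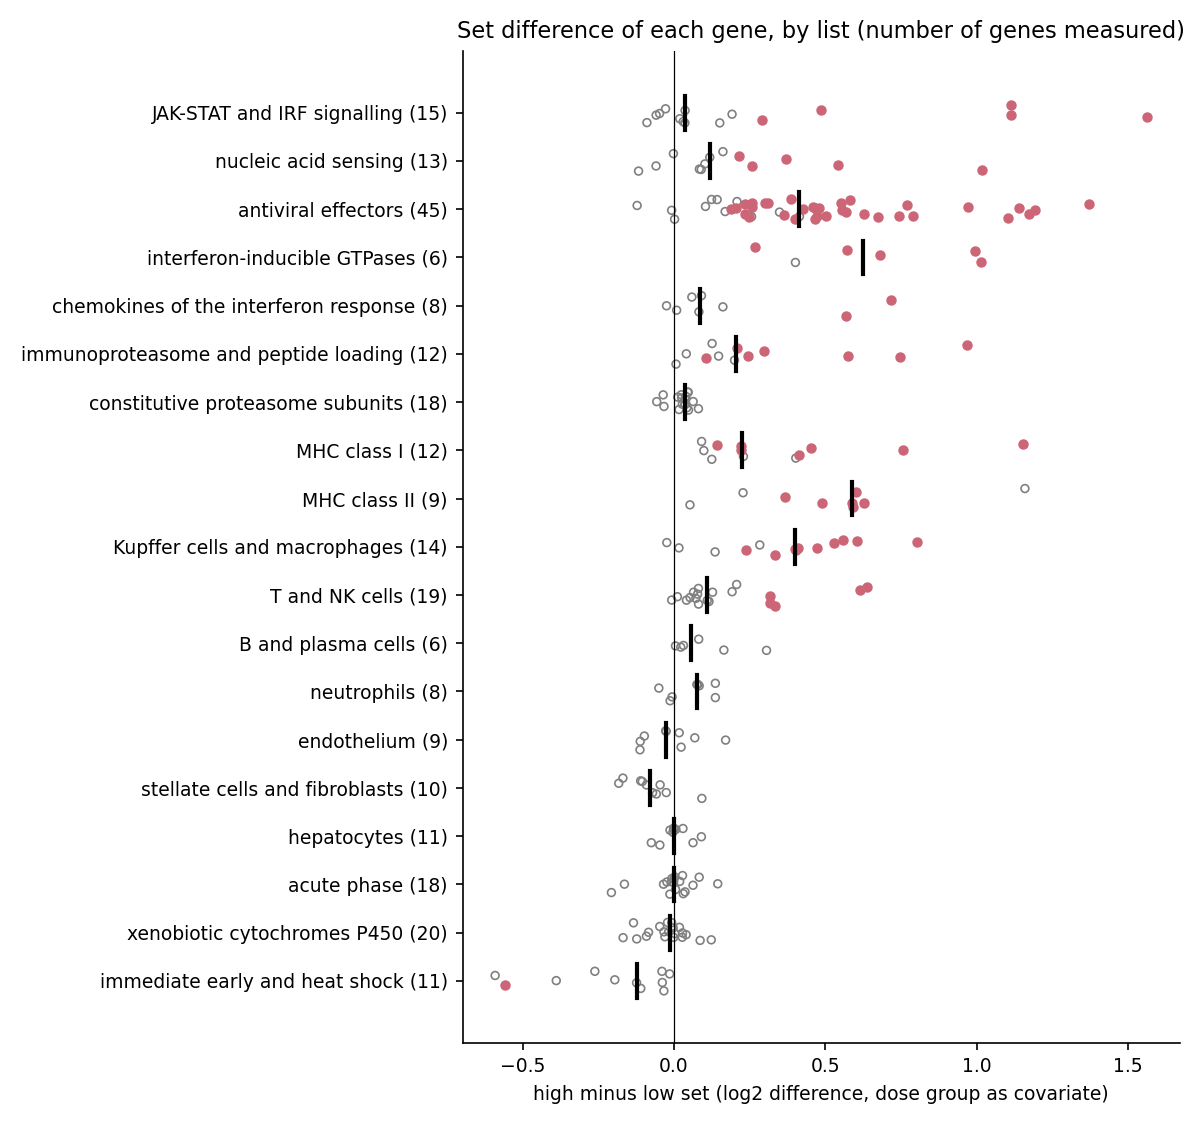
Difference between the high and low 4-gene sets of each measured gene (horizontal axis, log2, dose group as covariate), 1 row per list with the number of genes measured; filled red points passed an adjusted p of 0.05, open points did not, and black bars are list medians. Most genes of the interferon, MHC class II and Kupffer cell lists lie to the right of 0, and the lists of hepatocytes, acute phase and cytochromes P450 lie around it. The medians of JAK-STAT and IRF signalling and of the constitutive proteasome subunits are both 0.04.

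Antigen processing differed between the inducible and the constitutive proteasome. Psmb8 ran from 7.42 to 8.79 in the low and from 8.12 to 9.64 in the high set (difference 0.97, SE 0.14), Psmb9 differed by 0.75 (SE 0.10) and Psmb10 by 0.30 (SE 0.07). These are the catalytic subunits that replace the constitutive ones and change which peptides are made. Psmb10 did not pass without 943 mg/kg replicate 6. Of 18 constitutive subunits 0 passed, with differences from -0.06 to 0.08. In all, 7 of 12 genes of the immunoproteasome and peptide loading passed, among them the peptide transporter Tap1 (0.57), of which the 1 other probe set had the opposite sign. Without Ubd 4 of the 12 passed, and Psmb10 (adjusted p = 0.0525), the proteasome activator Psme1 (0.0761) and Nlrc5 (0.103), the transactivator of class I genes, did not. Of 12 MHC class I genes 7 passed, from B2m (0.14), the shared light chain, to RT1-S3 (0.76) and RT1-T24-3 (1.15). RT1 genes are near-identical copies, and their probe sets may share transcripts.

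MHC class II genes, which present antigen on macrophages, dendritic cells and B cells, also rose. Of 9 measured, 6 passed: RT1-Db1 (0.63), the lysosomal protease Ctss (0.60), the invariant chain Cd74 (0.59), RT1-Da (0.59), RT1-DMb (0.49) and RT1-DMa (0.37). Cd74 ran from 8.29 to 9.70 in the low and from 8.93 to 9.97 in the high set, so the sets overlapped widely. Their transactivator Ciita was at 0.05 (SE 0.05, adjusted p = 0.875). RT1-Bb (1.16, SE 0.43) and RT1-Ba (0.23, SE 0.32) varied too much between animals to pass.

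Markers of Kupffer cells rose with the interferon genes. Cd5l, a secreted scavenger receptor protein of Kupffer cells, ran from 7.89 to 9.08 (median 8.42) in the low and from 8.93 to 9.58 (median 9.25) in the high set, a difference of 0.80 (SE 0.09, limma adjusted p = 4.80e-07). Clec4f ran from 9.15 to 10.08 (median 9.44) and from 9.90 to 10.31 (median 10.12), a difference of 0.61 (SE 0.07). In both genes the sets overlapped. Of 14 measured genes on the list 10 passed, all higher, with a median difference of 0.40. The others that passed were the macrophage antigen Adgre1 (0.56), the lysosomal glycoprotein Cd68 (0.53), the complement subunits C1qa (0.47), C1qc (0.40) and C1qb (0.33), the signalling adaptor Tyrobp (0.41), the growth factor receptor Csf1r (0.40) and the haemoglobin scavenger receptor Cd163 (0.24). The 4 that did not pass were Spic (0.28), Cd14 (0.14), Mrc1 (0.02) and Lyz2 (-0.02).

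Clec4f and Cd68 divided the animals without overlap when Ubd was left out, though by narrow gaps. Clec4f then lay between 9.15 and 9.45 in the 11 low livers and between 9.51 and 10.31 in the 25 high livers. Cd68 lay between 7.06 and 7.40 and between 7.43 and 8.09, so the sets did not overlap in either gene. Both gaps were smaller than the median residual SD of 0.145. The share of all genes that divided these animals without overlap was not counted. Cd5l overlapped (low livers up to 8.58, high livers from 8.43), as did Adgre1 (up to 6.20, from 5.97), and in both 24 of the 25 high livers lay above every low one. As with the 4-gene sets, 10 of the 14 genes passed. The mean over the 14 genes was 7.61 to 7.85 in the low and 7.84 to 8.35 in the high livers, which overlapped in the third decimal. For the 4-gene sets it was 7.61 to 8.14 and 8.03 to 8.35. In these 3 measures the 5 animals that changed sides lay above the other low livers, with Clec4f at 9.51 to 10.08, apart from the lowest of the list means, which was 7.84. With the list's mean as a covariate, 0 probe sets passed in limma (1061 at an unadjusted p under 0.05), and Usp18 differed by 0.41 (adjusted p = 1.00). The list's mean itself differed between the sets with little overlap, so this fit cannot separate the sets from that mean. The part of the Kupffer cell genes in the other differences was not tested. In bulk tissue, fewer cells of a type and less RNA per cell cannot be told apart. Genes of this kind among the 25 largest differences were Ms4a6a (1.30), a membrane protein of macrophages, and the Fc receptor Fcgr3a (0.76).

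**Figure D5:**
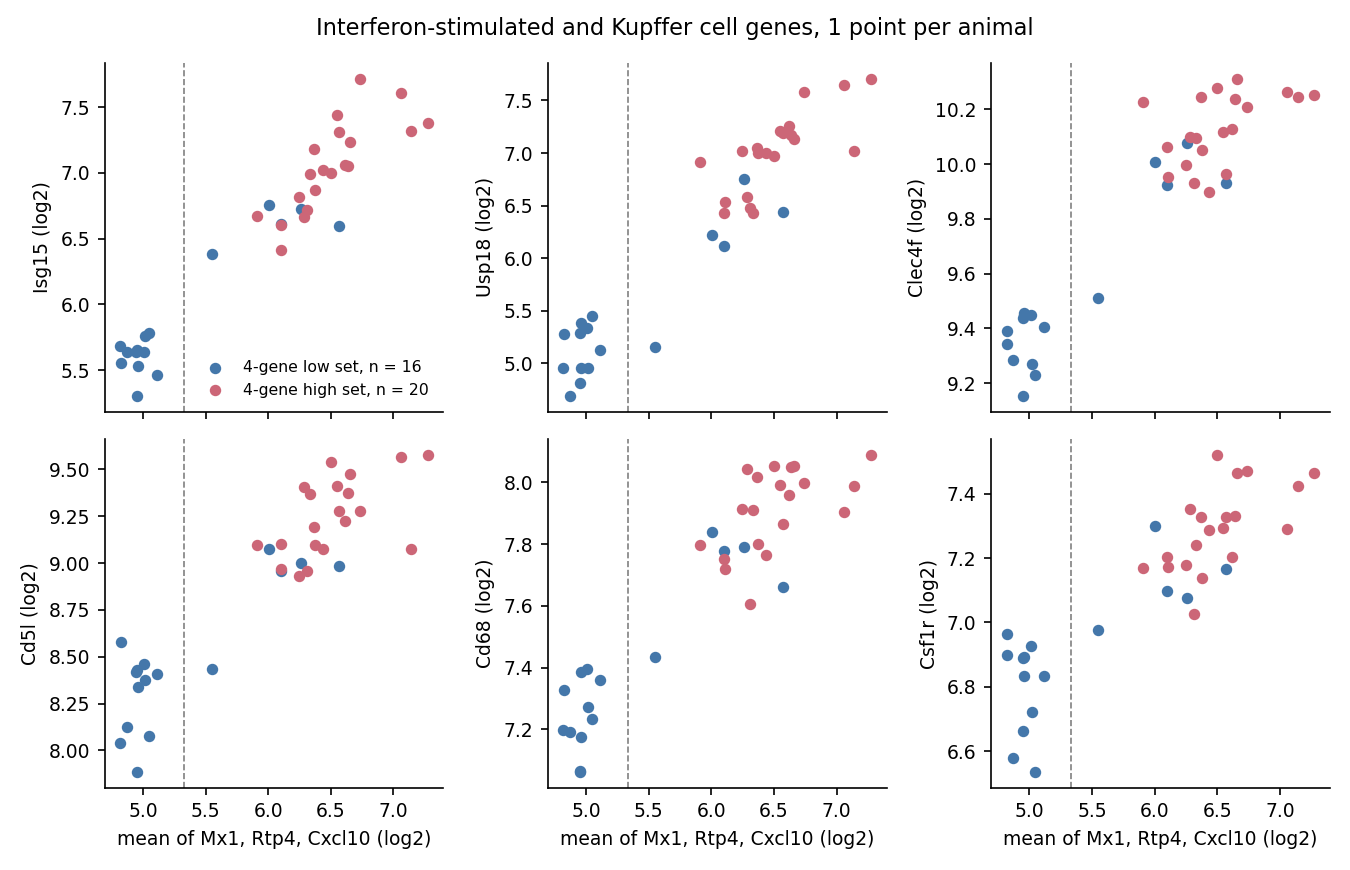
Log2 values of 2 interferon-stimulated genes (Isg15, Usp18) and 4 Kupffer cell genes (Clec4f, Cd5l, Cd68, Csf1r) on the vertical axes against the mean of Mx1, Rtp4 and Cxcl10 (horizontal axis), 1 point per animal, coloured by 4-gene set; the dashed line divides the sets without Ubd. The 11 animals left of the line are low in all 6 genes, and the animal at 5.55 is high in Isg15 and near the low livers in the others.

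Fewer genes passed on the lists of other cell types. Of 19 T and NK cell genes 5 passed, and all are genes of cytotoxic cells: Gzma (0.64), Prf1 (0.61), Nkg7 (0.33), Klrd1 (0.32) and Gzmb (0.32). Gzma and Prf1 encode granzyme A and perforin, which cytotoxic granules release. Gzma ran from 4.21 to 5.60 in the low and from 5.09 to 5.92 in the high set. Gzmb did not pass without 94.3 mg/kg replicate 1. The T cell receptor genes Cd3e (0.06), Cd3d (0.11) and Cd3g (0.07) and the coreceptor Cd8a (0.05) did not pass, and 12 of the 19 genes were below every array's median. Of 6 B and plasma cell genes, 8 neutrophil genes, 9 endothelial genes, 10 stellate cell and fibroblast genes, 7 cholangiocyte genes and 11 hepatocyte genes, 0 passed. Of these, 4 B and plasma cell genes, 6 neutrophil genes and 2 cholangiocyte genes were below every array's median. The list medians ran from -0.08 for stellate cells and fibroblasts to 0.08 for neutrophils. Over all genes 1.63% passed, so a count of 0 is near that share for lists of this size. The median of the hepatocyte markers was -0.00094, and their range was -0.08 to 0.09. Of 7 dendritic cell genes, only Bst2 (0.58) passed, which is also an antiviral effector on another list.

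The 8 genes that passed as lower were fewer and less stable. Fgf21, a hormone that the liver secretes under metabolic stress, ran from 6.14 to 9.88 (median 8.39) in the low and from 5.21 to 9.34 (median 6.98) in the high set, a difference of -1.23 (SE 0.31, limma adjusted p = 0.0400). Bhlhe40, a repressor of the circadian clock, was at -1.05 (SE 0.27, adjusted p = 0.0355), the growth arrest gene Gadd45a at -0.67 (SE 0.17, adjusted p = 0.0346) and the immediate early gene Ier2 at -0.56 (SE 0.14, adjusted p = 0.0301). The sets overlapped in all 4. Leaving out 1 animal at a time, Fgf21 passed in 18 of 36 fits, Bhlhe40 in 24, Gadd45a in 21 and Ier2 in 26. Without Ubd, Ier2 passed (adjusted p = 0.0227), and Fgf21 (0.276), Bhlhe40 (0.166) and Gadd45a (0.178) did not. The other 4 were Baiap2 (-0.23), Nrn1 (-0.22), Zc3hav1l (-0.19) and Cyp2f4 (-0.18). Baiap2 passed in 18 of the 36 fits and Nrn1 in 12, and neither passed without Ubd (adjusted p = 0.229 and 0.405 in limma). Zc3hav1l did not pass without 94.3 mg/kg replicate 1, Cyp2f4 passed in all 36 fits, and both passed without Ubd. A list of 11 immediate early and heat shock genes held signs of RNA quality and of stress while tissue is handled. All 11 were below 0 (-0.59 to -0.01, median -0.12), while over all 14213 genes 6480 were above 0. Of the 11, 1 passed, Ier2. Without Ubd 1 of the 11 was above 0, and the median was -0.18. The part of these genes in the set difference was not tested.

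Lists of hepatocyte and other functions held few calls, and over all genes 1.63% passed. A count of 0 in lists of this size is near that share, so it sets no list apart. Of 18 acute phase genes, 20 xenobiotic cytochrome P450 genes, 19 cholesterol synthesis genes, 14 complement genes and 26 cell cycle genes, 0 passed, with medians of 0.0012, -0.01, -0.0070, 0.02 and 0.02. Of 18 PPARalpha targets only Fgf21 passed, and of 16 clock genes only Bhlhe40. Of 16 genes of ER stress and ATF4 signalling 0 passed, but 15 were below 0 in the high set, with a median of -0.11. Among them were the transcription factor Atf4 (-0.23, limma adjusted p = 0.615) and Chac1 (-0.53, adjusted p = 0.756), which degrades glutathione. Without Ubd 6 of the 16 were above 0, and the median was -0.08. Of 16 genes of the NF-kB response 1 passed, Il1b (0.38), a cytokine made mainly by macrophages, and without Ubd the adhesion molecule Vcam1 (0.30, adjusted p = 0.0116) passed too. Abcg1 (0.23), a cholesterol exporter of macrophages, was the 1 of 7 efflux genes that passed. Hamp, the iron hormone hepcidin, was at -0.16 (adjusted p = 0.759).

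High and low livers were also found among animals that received corn oil alone. Isg15 in the 6 vehicle animals was 5.69 and 5.76 in replicates 1 and 5, and 6.60, 6.60, 7.00 and 7.24 in replicates 6, 4, 3 and 2. Clec4f was 9.34 and 9.27 in replicates 1 and 5, and 9.93, 10.06, 10.28 and 10.31 in replicates 6, 4, 3 and 2. In these 2 genes replicates 1 and 5 were low and the other 4 high, replicate 6 included, which its low Ubd (4.70) put in the low 4-gene set. Psmb9 did not divide the same way, as low replicate 5 (7.95) was above high replicate 4 (7.77). Between the 4-gene sets of 3 and 3 vehicle animals, Irf9 differed by 1.13, and 0 probe sets passed in limma (1944 at an unadjusted p under 0.05). In the 30 dosed animals, with dose group as covariate, 289 passed and Irf9 differed by 1.11. Some genes differed less between the vehicle than between the dosed animals, as Oas1a (0.67 and 1.32), Psmb9 (0.37 and 0.83) and Cxcl9 (0.21 and 0.65). Others differed more between the vehicle animals, as Gbp2 (1.15 and 0.98) and Cd5l (0.91 and 0.78). A test of whether the set difference itself differed between dosed and vehicle animals passed for 0 of 31038 probe sets (0%, 2036 at an unadjusted p under 0.05).

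The control probe sets for RNA quality had like ranges in both sets. The 3-prime minus 5-prime difference of the Gapdh control probe sets ran from -0.17 to 0.02 in the low and from -0.18 to 0.01 in the high set, and that of beta-actin from 0.99 to 1.51 and from 1.05 to 1.41. With the Gapdh difference as a covariate 339 probe sets passed. Array medians lay between 4.59 and 4.66, and correlations between arrays between 0.989 and 0.997.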

How the data were processed

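Liver RNA of 36 rats was measured on 36 single-colour arrays. The authors deposited log2 intensities, 1 per probe set and array, and the submitters' processing notes name RMA and affy for them, without versions. Of 31099 probe sets, 57 array controls and the 4 naming the sorting genes were left out, and 31038 were tested without a filter on signal. A probe table pairs 20826 with 1 gene and 436 with several, and 9780 are unnamed here. Per gene the one-gene probe set with the highest mean was used (14217 genes).

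The sets were compared in limma 3.58.1 (R 4.3.3; lmFit, eBayes) with dose group as covariate, two-sided, with Benjamini-Hochberg adjustment and a threshold of 0.05. The residual SD had a median of 0.145, and the number of arrays limits the precision. The fits were tested on simulated data. Where nothing says otherwise, p values measure the spread between these samples. The members, gene lists and tests were chosen with earlier results of these data known. The sets by Ubd alone, both divisions in one fit, the Kupffer cell covariate and leaving out 5 animals were chosen after seeing the data. Named genes are up to 25 per direction by size among those that passed, and up to 6 per list by p; others named from a list, and Ubd's grouping, were chosen after their values were seen. Promoters came from RefSeq (GRCr8), matched by Entrez gene identifier. Rtp4 and Usp18 were not matched.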

Additional observations from a re-analysis of the deposited data

Results flagged for a closer look

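Within the 6 animals at 0.1 mg/kg, Ubd of replicate 1 (4.63) lay apart from the others (7.58 to 9.01), and the gap was 0.673 of the group's range. The 5 measures Mx1, Rtp4, Cxcl10, Ubd and the 4-gene mean were screened in 6 groups, 30 in all, so chance alone can mark some. The 30 are not independent, as the 4-gene mean is made of the other measures. That animal is 1 of the 8 with low Ubd and belongs to the low 4-gene set, and leaving it out gave 320 calls.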

How the results depend on the processing

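Leaving out 1 animal at a time gave 296 to 392 calls. Fits within a group gave 0 in vehicle animals, 3 at 0.1 mg/kg (Mx2, Ddx60, RT1-T24-3), 41 at 0.94 mg/kg, 0 at 9.4 mg/kg (1450 at an unadjusted p under 0.05) and 3 at 943 mg/kg (RT1-Db1, RT1-Ba, RT1-Bb); they hold fewer animals, and 94.3 mg/kg, with 1 low animal, was not run. With the replicate number as a block 209 passed. Over all probe sets tested, deviations of same-numbered animals from their group means had correlations from -0.27 to 0.29, with a median of 0.0021. Replicate 1 was in the low 4-gene set in every group but 9.4 mg/kg. Replicate 6 was in the high set in every group but vehicle. The labels do not say what the numbers stand for, and their part in the sets was not tested. At least 1.5-fold differences were 65. Sets from Ubd alone, Ubd beside the sets without Ubd and the Kupffer cell mean as covariate gave 0, 0 and 0. The set difference at the 2 highest doses against the rest differed for 1 probe set, of Pnpla3. Signs turned for Fgf21 at 0.1 mg/kg (0.38), for Mx2 (-0.078) and RT1-T24-3 (-0.014) at 9.4 mg/kg, for the Ubd term in Oas1a (-0.16), RT1-T24-3 (-0.074) and Ifit3 (-0.059), and for Oas1a with the Kupffer cell covariate (-0.021); the cause was not tested. The other alternatives gave 260 to 493 calls, the continuous score the most, and the dose test gave exact p from 0.459 to 1. Genes below the array medians may have compressed differences, which was not tested, though Ddx60, 1 of them, differed by 1.02.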

Other observations

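Another gene that varied widely between these livers did not follow the sets. Bcl6, a transcriptional repressor, ran from 4.71 to 9.87 in the low and from 5.32 to 9.94 in the high 4-gene set, a difference of 0.37 (SE 0.53, limma adjusted p = 0.934). In the 8 livers with low Ubd it ran from 4.71 to 7.03 (median 6.35), and in the 28 others from 5.21 to 9.94 (median 7.93). Abhd3 ran from 2.33 to 7.40 in the low and from 2.42 to 7.87 in the high 4-gene set, and Ephx2, an epoxide hydrolase, from 4.97 to 9.52 and from 5.02 to 8.46. The 3 genes were picked for their spread, so these values are a description.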
